A study of Mus musculus with 3 samples.

Results

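Wnt ligands and the genes that carry the Wnt signal to LEF/TCF transcription factors were examined in 4T1 cells, a mouse mammary carcinoma line. The list held 10 genes, namely the ligands Wnt9a, Wnt4, Wnt7a and Wnt7b, the co-receptor gene Lrp6, Ctnnb1 (beta-catenin), the factors Lef1, Tcf7 and Tcf7l2, and the feedback gene Axin2. Members were all probe sets whose platform annotation gave 1 of these genes as the only symbol, which found 22 of the 45037 probe sets for 9 of the 10 genes, out of 18193 named genes. Tcf7 was not analysed here. The genes were chosen by their pathway role with the co-culture signals of Wnt9a, Lef1 and their relatives in view, so the values below are a description and carry no test.

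Total RNA was hybridised to 3 Affymetrix Mouse Genome 430 2.0 arrays, 1 for each culture condition. One condition was culture in regular medium, of unstated length. Another was 1 week in MSC-CM, that is, medium taken from MSCs (commonly mesenchymal stem or stromal cells). For the last, the cells spent 1 week touching MSCs in co-culture and were then isolated. All 3 groups were 4T1 cells grown in RPMI-1640 with fetal bovine serum. The labels used here name neither the source of the MSCs nor the way the 4T1 cells were separated from them. With 1 array a group there is no replicate error, every difference compares 2 arrays, and no p-value is given.

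Wnt proteins are secreted lipid-modified ligands that bind Frizzled receptors and the co-receptors LRP5 and LRP6. In the canonical branch, binding stops a cytoplasmic complex of Axin, APC, GSK3 and casein kinase 1 from marking beta-catenin for destruction, and beta-catenin then joins LEF/TCF factors on DNA. In the mammary gland Wnt4 acts in the side branching that progesterone drives, and Lef1 is needed for the formation of the embryonic mammary bud.

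Promoter sequence is shown for the genes that stood highest in co-culture, Wnt9a and Lef1, and for the start sites of Lef1 and Tcf7l2 that hold letters of a LEF/TCF site. The 250 bases before each annotated start were taken from RefSeq (GRCm38.p6) and searched on both strands for the site letters AACAAAG and also ATCAAAG, then TACAAAG and also TTCAAAG. No other motif was searched. Matches are in capitals and all other bases in lower case, each written 5′ to 3′ on the plus strand. The windows lie at chr11:59306680-59306929 for Wnt9a, chr3:131110047-131110296 for the upstream Lef1 start, chr3:131156044-131156293 for an internal Lef1 start and chr19:55895071-55895320 for an internal Tcf7l2 start.
Wnt9a: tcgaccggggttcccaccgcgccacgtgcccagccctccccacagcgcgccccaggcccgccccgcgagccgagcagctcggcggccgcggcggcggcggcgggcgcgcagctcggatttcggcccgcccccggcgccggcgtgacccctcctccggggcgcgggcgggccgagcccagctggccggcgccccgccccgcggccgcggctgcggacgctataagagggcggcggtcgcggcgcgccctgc
Lef1, upstream start: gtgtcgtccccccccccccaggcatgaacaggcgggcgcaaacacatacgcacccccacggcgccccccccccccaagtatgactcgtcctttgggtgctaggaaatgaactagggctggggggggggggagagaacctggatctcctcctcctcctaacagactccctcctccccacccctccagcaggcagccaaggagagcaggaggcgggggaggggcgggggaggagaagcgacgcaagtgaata
Lef1, internal start: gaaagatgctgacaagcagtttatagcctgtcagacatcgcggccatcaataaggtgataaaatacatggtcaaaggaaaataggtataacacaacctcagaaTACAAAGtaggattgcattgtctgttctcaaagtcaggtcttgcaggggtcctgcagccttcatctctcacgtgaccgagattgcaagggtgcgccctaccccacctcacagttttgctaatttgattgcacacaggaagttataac
Tcf7l2, internal start: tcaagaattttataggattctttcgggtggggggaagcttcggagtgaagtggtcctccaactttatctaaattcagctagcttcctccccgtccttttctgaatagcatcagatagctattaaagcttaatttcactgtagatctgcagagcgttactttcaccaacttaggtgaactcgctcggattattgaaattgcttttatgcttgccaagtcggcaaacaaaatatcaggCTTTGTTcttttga
The internal starts lie inside the genes, downstream of the upstream annotated start. The match lay with its first base 147 bases before the start in Lef1 (TACAAAG) and 14 bases before it in Tcf7l2 (CTTTGTT, the reverse complement of AACAAAG). The table held 14 start windows for 8 of the 10 listed genes, Tcf7 among them, and 2 of the 14 held a match. Among all 32851 windows of the same length, 14.84% held one. The Wnt9a window was 84.4% G or C with 48 CpG steps, and 99.78% of all windows had a lower share of G and C. A match describes letters only, and the arrays do not show which start site a transcript came from.

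Signals are MAS5 values, a linear brightness that combines the probes of a probe set and is scaled per array. Signals below 42.4, the 40th percentile of all signals, were set to that floor before a log2 difference was taken. A signal of 149.3, the 60th percentile, or more is called bright. The word called is used for a probe set or gene that was bright on at least 1 of the compared arrays and whose floored signals were 2-fold or more apart. Where the dimmer signal was under the floor, the fold is a lower bound. A gene with several probe sets is represented by the one with the highest mean signal, and the others are given beside it. Of the 22 member probe sets, 9 were bright on all 3 arrays, 13 on at least 1 and 3 lay under the floor on all 3.

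**Figure D1:**
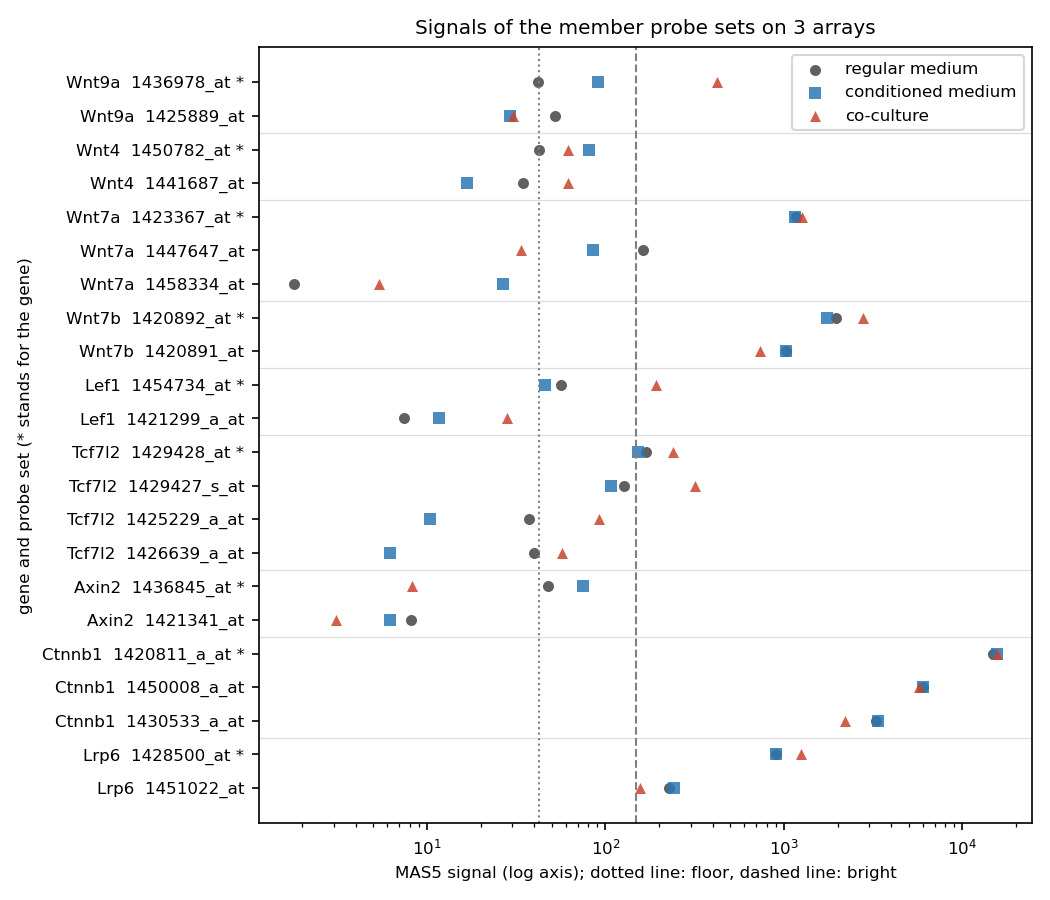
MAS5 signal (log axis) of the 22 member probe sets on the regular medium (circles), conditioned medium (squares) and co-culture (triangles) arrays, with the floor of 42.4 dotted and the bright level of 149.3 dashed; an asterisk marks the probe set that stands for its gene. The co-culture triangle lies apart to the right for 1 Wnt9a probe set, for the brighter Lef1 probe set and for Tcf7l2 probe sets 1429427_s_at and 1425229_a_at, while Axin2 and Wnt4 stay under the bright level on every array.

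In co-culture, Wnt9a and Lef1 were the members called higher than in regular medium, and no member gene was called lower. These 2 came from 7 member genes that were bright on at least 1 of both arrays, while Wnt4 and Axin2 were not bright on either. Across all 9393 bright genes, 5.81% were called higher and 2.76% lower. Since the members were chosen with this contrast in view, nothing is read from the 2 of 7, nor from the directions and medians that follow. Wnt9a and Lef1 were bright on the co-culture array alone. The 7 bright members all had a log2 difference above 0, with a median of 0.51 against 0.07 over all bright genes. Over all 9 members, bright or not, the median was also 0.51. The choice of probe set bears on this, because of 13 bright member probe sets 8 lay above 0 and 5 below, with a median of 0.12. With the median of a gene's probe sets in place of the brightest, 4 members were bright, 1 above 0 and 3 below, with a median of -0.06. Among the 13 probe sets, 3 were called higher and 1 lower, where 5.17% and 5.49% of all 19131 bright probe sets were.

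**Figure D2:**
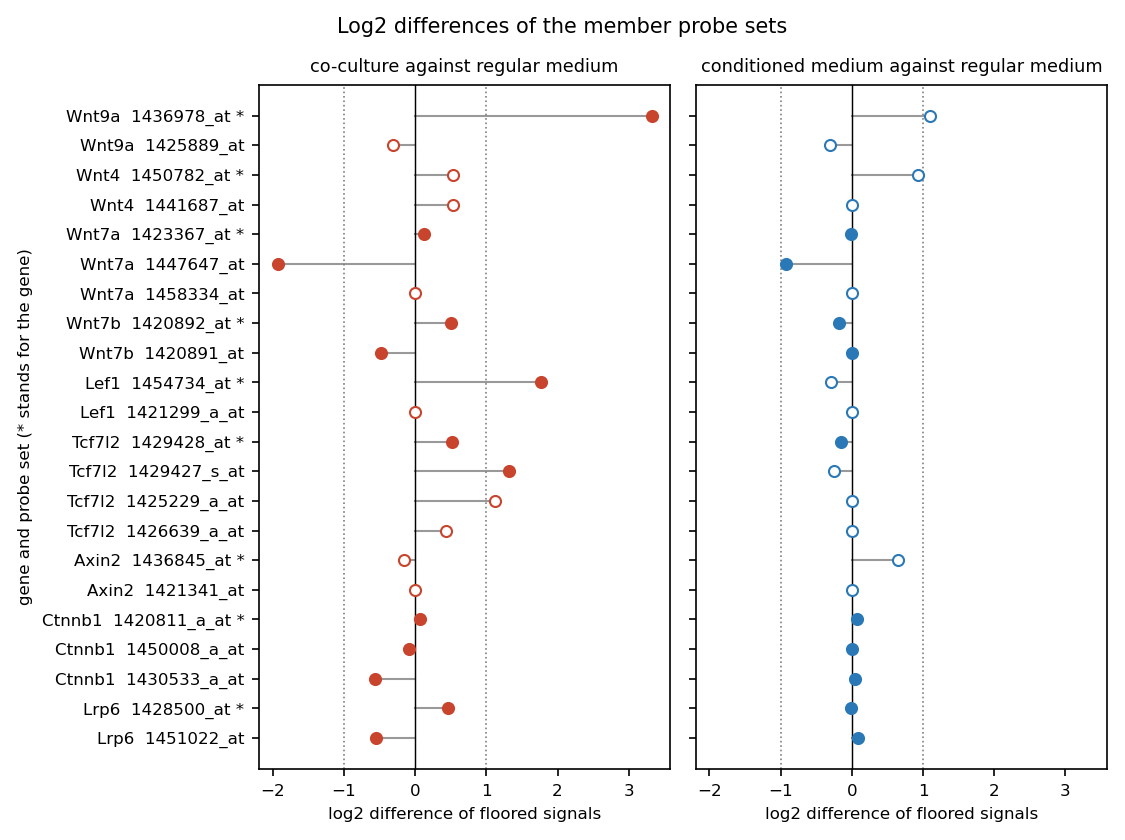
Log2 difference of floored signals for each member probe set, co-culture against regular medium on the left and conditioned medium against regular medium on the right, with dotted lines at a 2-fold difference; filled points were bright on at least 1 of the 2 arrays and open points were not. In co-culture 3 filled points lie beyond the right dotted line and 1 beyond the left, and in conditioned medium none does.

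Wnt9a, a ligand known for its part in joint formation, had the largest difference of the 9 member genes. Probe set 1436978_at gave 41.9 on the regular medium array, 90.5 with conditioned medium and 424.0 with co-culture. The regular medium signal lay just under the floor, so co-culture was at least 10.0-fold above it (log2 difference 3.32). Against conditioned medium the co-culture signal was 4.69-fold higher (log2 difference 2.23). Conditioned medium stood between the other arrays and at least 2.13-fold above regular medium, but its signal was not bright and met no call. The second Wnt9a probe set, 1425889_at, did not show this order. Its signals were 52.4, 29.3 and 30.4 in the same order of arrays, and only the regular medium signal lay above the floor. Taking the median of both probe sets on the log scale gave a Wnt9a log2 difference of 1.51 in co-culture against regular medium and no bright signal, so the call rests on 1436978_at alone. With the floor raised to the 60th percentile the Wnt9a difference was also 1.51, and the call stayed.

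Wnt7a and Wnt7b are closely related ligands that the mammary epithelium and many carcinomas can make. The Wnt7b probe set 1420892_at gave 1963 in regular medium, 1742 with conditioned medium and 2788 in co-culture, 1.42-fold above regular medium. The other, 1420891_at, gave 1028, 1030 and 736.5, so that co-culture was the highest array by the first and the lowest by the second. The gap between their log2 differences was 0.99, beside a median gap of 0.49 over the 4477 genes with at least 2 bright probe sets. For Wnt7a, 1423367_at was nearly level at 1164, 1151 and 1264 (log2 difference 0.12 in co-culture). A second Wnt7a probe set, 1447647_at, gave 161.5, 85.5 and 33.7 and was at least 3.81-fold lower in co-culture, while the third, 1458334_at, was under the floor throughout at 1.8, 26.5 and 5.4. No single direction therefore describes either of these ligands in co-culture.

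Wnt4 was dim on every array. Its probe set 1450782_at gave 42.3, 80.7 and 61.6 on the regular medium, conditioned medium and co-culture arrays, and 1441687_at gave 34.3, 16.7 and 61.3. Neither reached the bright level. The first had its highest signal in conditioned medium, where the second was under the floor, so no difference between conditions was detectable for Wnt4 here.

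Lrp6, the co-receptor that is phosphorylated when a Wnt ligand binds, also gave opposite directions. Probe set 1428500_at read 902.3 in regular medium, 898.2 with conditioned medium and 1241 in co-culture, a log2 difference of 0.46. Probe set 1451022_at read 227.9, 243.3 and 155.7, a log2 difference of -0.55. Ctnnb1 encodes beta-catenin, which serves both in Wnt signalling and in cell junctions. Its probe set 1420811_a_at was within 1.06-fold on all 3 arrays, with 14806, 15621 and 15605. Probe set 1450008_a_at gave 6060, 6047 and 5718, and 1430533_a_at gave 3263, 3381 and 2215, 1.47-fold lower in co-culture than in regular medium. None of the Ctnnb1 or Lrp6 probe sets met the 2-fold rule.

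Lef1 encodes lymphoid enhancer-binding factor 1, which activates genes with beta-catenin and is itself a known target of the pathway. Probe set 1454734_at gave 56.4 in regular medium, 46.0 with conditioned medium and 193.0 in co-culture. The co-culture signal was thus 3.42-fold above regular medium (log2 difference 1.77) and 4.20-fold above conditioned medium (2.07), and it alone was bright. The other Lef1 probe set, 1421299_a_at, gave 7.4, 11.7 and 28.2, all of which lay under the floor and have neither order nor fold. The Lef1 call depends on how dim signals are handled. With the floor at the 60th percentile the log2 difference against regular medium was 0.37, and with the median of both probe sets it was 0.89, and neither met the call.

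Tcf7l2 encodes TCF4 of the LEF/TCF family, best known in the intestinal epithelium. All 4 of its probe sets had their highest signal in co-culture. Probe set 1429428_at, which stands for the gene with a mean signal of 186.9, gave 168.6 in regular medium, 151.7 with conditioned medium and 240.5 in co-culture, a 1.43-fold difference from regular medium. Probe set 1429427_s_at, with a nearly equal mean of 184.5, gave 127.7, 107.6 and 318.2, and was 2.49-fold above regular medium and 2.96-fold above conditioned medium, which met the 2-fold rule. The dimmer ones, 1425229_a_at with 37.5, 10.4 and 92.6 and 1426639_a_at with 39.8, 6.2 and 57.1, were above the floor in co-culture alone and bright on no array. Tcf7l2 was therefore called higher by 1 probe set of 4 and not by the one that represents it.

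Axin2 is a scaffold of the destruction complex and a widely used readout, since beta-catenin and LEF/TCF factors switch it on as negative feedback. Its probe set 1436845_at gave 47.4 in regular medium, 74.4 with conditioned medium and 8.2 in co-culture, and 1421341_at gave 8.1, 6.2 and 3.1. The first lay under the floor in co-culture, the array on which Lef1 and Wnt9a were highest, and the second lay under it throughout. Neither reached the bright level on any array, so no Axin2 difference can be called. The size of the difference for 1436845_at in co-culture against regular medium follows the floor, at -0.16 on the log2 scale with the floor used here and -2.12 with a floor at the 20th percentile.

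**Figure D3:**
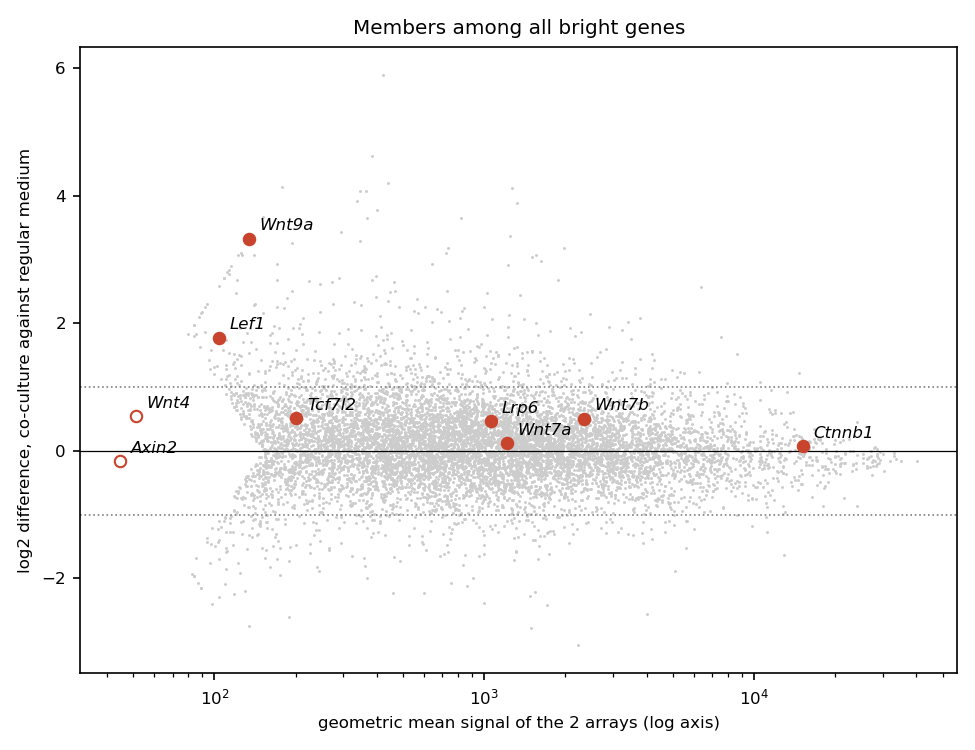
Log2 difference of co-culture against regular medium plotted against the geometric mean of both floored signals (log axis) for the 9393 bright genes (grey) and the 9 member genes (red; open where not bright). Wnt9a and Lef1 lie above the 2-fold line at the dim end, and Lrp6, Wnt7b, Wnt7a and Ctnnb1 lie among most genes.

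In conditioned medium no member gene was called against regular medium, among 5 that were bright, and no member probe set among 10. Over all 9152 bright genes 0.109% were called higher and 0.306% lower, and over all 18666 bright probe sets 0.193% and 0.429%, so a call was rare in this comparison. The bright members ranged from a log2 difference of -0.17 for Wnt7b to 0.08 for Ctnnb1. Their median was -0.02, beside 0.01 over all bright genes. Of the 5, 1 lay above 0 and 4 below, which scaling to the same median turned to 4 above and 1 below, so no direction is given for them. These values are from the probe sets that stand for the genes. Another bright probe set of Wnt7a, 1447647_at, gave 85.5 against 161.5 in regular medium. Its log2 difference of -0.92 missed the 2-fold rule.

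Co-culture was set beside conditioned medium to compare contact with exposure to secreted factors, although only the co-culture cells went through isolation and the effects of contact and isolation cannot be told apart. Again Wnt9a and Lef1 were called higher, among 7 bright members, and no member was called lower, where 5.83% of 9350 bright genes were higher and 2.6% lower. Of 12 bright member probe sets 3 were higher and 0 lower, beside 5.29% and 5.47% of all 18987. Tcf7l2 had a log2 difference of 0.66, and its other bright probe set, 1429427_s_at, one of 1.56. Wnt7b had 0.68 by 1420892_at and -0.48 by 1420891_at, and Lrp6 had 0.47 by 1428500_at and -0.64 by 1451022_at, so neither has a single direction here. This comparison shares its co-culture array with the one against regular medium and adds no independent support to it.

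The other genes of the pathway were read from 9 lists by role, which include the members. Of 153 listed genes 150 had a named probe set, and 88 were bright in co-culture against regular medium. Among the 88, 6 were called higher and 2 lower, or 6.82% and 2.27%, close to the 5.81% and 2.76% over all genes. Their median log2 difference was 0.27, with 63 above 0 and 25 below, beside 0.07 and 56.02% above 0 for all genes. Scaling the arrays to the same median moved the median of all bright genes from 0.07 to 0.21, and among the 88 it gave 10 higher (Wnt10a, Gsk3b, Ccn4 and Celsr1 added) and 1 lower (without Birc5), where the shares over all genes also moved, to 8.54% higher and 1.78% lower. With the median of a gene's probe sets, 71 listed genes were bright, 36 above 0 and 35 below, with a median of 0.01, so the shift of the lists above 0 depends on taking the brightest probe set. In that setting 2 were called higher (Ccn4 and Ephb3) and 4 lower (Birc5, Fbxw11, Plaur and Wnt7a). The shares over all bright genes there were 4.76% higher and 4.11% lower. Wnt9a, Lef1, Fzd4, Lgr6 and Prickle1 lost their call in it. In conditioned medium none of 84 bright pathway genes was called. Over all bright genes 0.109% were called higher and 0.306% lower there, so nothing is read from this count.

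**Figure D4:**
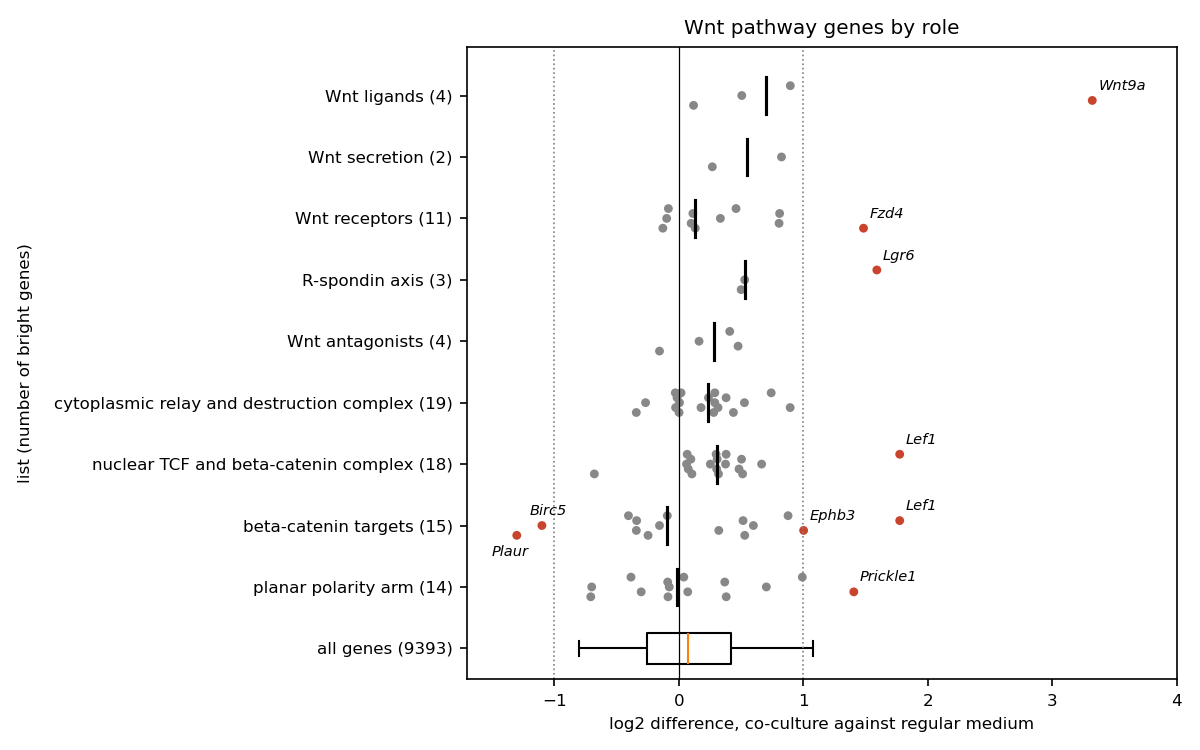
Log2 difference of co-culture against regular medium for the bright genes of 9 Wnt pathway lists (points; red and named where called; black bars are medians; dotted lines mark 2-fold), with all 9393 bright genes as a box (quartiles, median line, whiskers at the 5th and 95th percentiles). The beta-catenin targets hold 2 genes called higher and 2 called lower, and every other list holds 1 call or none. Lef1 is plotted both in the nuclear list and among the targets.

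Most Wnt ligands were dim in 4T1 cells. Of 19 listed, 4 were bright on any array (Wnt7a, Wnt7b, Wnt9a and Wnt10a) and 9 lay under the floor on all 3. Wnt10a, a ligand of skin, tooth and mammary placode development, gave 391.9, 468.2 and 729.2 on the regular medium, conditioned medium and co-culture arrays, a log2 difference of 0.90 in co-culture that missed the 2-fold rule. Of the ligand secretion genes, Wls, the carrier that brings Wnt proteins to the cell surface, was 1.77-fold above regular medium in co-culture with 2668 against 1506, and its other bright probe sets had log2 differences of 0.39 and 0.40. Gpc4, a cell-surface glypican, had a difference of 0.27.

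Among 11 bright receptor genes, 1 was called higher (Fzd4) and 0 lower, where 5.81% and 2.76% of all bright genes were. The median log2 difference of the 11 was 0.13. Fzd4, a Frizzled receptor that also serves the ligand norrin, gave 208.6, 227.8 and 583.5 and was 2.80-fold above regular medium in co-culture, and a further bright probe set lay in the same direction at 0.86 on the log2 scale. In the R-spondin axis, which controls how many Frizzled receptors stay on the cell surface, Lgr6 was called higher and none of the 3 bright genes lower. Lgr6, an R-spondin receptor, gave 186.2, 175.8 and 561.0, 3.01-fold above regular medium, while a further bright probe set was at 0.21 on the log2 scale. With the median of a gene's probe sets neither Fzd4 nor Lgr6 was called against regular medium, though both were against conditioned medium. None of 4 bright antagonists was called, and Kremen1 and Tpbg, both membrane proteins that dampen Wnt signalling, had differences of 0.48 and 0.41.

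None of the 19 bright genes of the cytoplasmic relay and destruction complex was called, beside 5.81% higher and 2.76% lower of all bright genes. Gsk3b, the kinase that marks beta-catenin for destruction, had a log2 difference of 0.89 (its 4 other bright probe sets ran from 0.04 to 1.11), and Csnk1g1, a casein kinase that acts on LRP6, one of 0.74. Gsk3b was called higher with the arrays scaled to the same median. Of 14 genes above 0 by the brightest probe set, 13 had other bright probe sets. In 9 of these at least 1 lay below 0, down to -1.48 for Tnks2, -1.47 for Dvl2 and -1.12 for Fbxw11. With the median of probe sets 7 of 17 bright genes lay above 0, with a median of -0.05, and Fbxw11 was called lower. In the nuclear list Lef1 was the only gene called in co-culture against regular medium. By the brightest probe set 17 of 18 bright genes had differences above 0, with a median of 0.31, beside 56.02% of all genes. Of the 17, 9 had other bright probe sets, and in 5 of these (Ctnnb1, Tle3, Smarca4, Cdc73 and Chd8) at least 1 of them lay below 0. With the median of probe sets 6 of 12 bright genes lay above 0, so no direction of the list held under both choices. The median of the 12 was 0.07, beside -0.0035 over all bright genes in the same setting. The exception below 0 was Ctnnbip1, an inhibitor that keeps beta-catenin from TCF, with 944.7, 852.6 and 590.2 and a log2 difference of -0.68. Bcl9l, a co-activator that binds beta-catenin, gave 280.3, 173.0 and 346.1 and was called higher against conditioned medium, at 2.00-fold, but not after either rescaling of the arrays (to the same median or by quantiles).

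Genes known as beta-catenin targets gave no common direction. Of 15 bright genes 7 lay above 0 and 8 below. Called higher were 2 and lower 2, where 5.81% and 2.76% of all bright genes were. The median log2 difference of the 15 was -0.09, or 0.05 with the arrays scaled to the same median. Besides Lef1, Ephb3, a receptor of crypt cell positioning, was called higher, at 102.1, 106.8 and 204.6. It only just met the 2-fold rule against regular medium (2.00-fold) and missed it against conditioned medium (1.92-fold). Birc5 (survivin) was 2.14-fold lower with 3851 in co-culture against 8254, and Plaur, the urokinase receptor gene, was 2.47-fold lower with 890.9 against 2197. Birc5 is also a gene of dividing cells. Ccn4, a secreted protein first found as Wnt-induced, had a log2 difference of 0.88 by one probe set and 1.16 by another. In the other direction, Met had -0.16 by its brightest probe set and -1.42 by another. Cd44 had -0.34 by its brightest and -1.04 by the lowest of 2 others. Of 26 targets with a probe set 11 were not bright on any array, among them Axin2, Nkd1, Sp5, Lgr5, Notum and Dkk1. Znrf3 of the same list was bright on all 3, with 505.2, 509.8 and 729.2 and a log2 difference of 0.53 in co-culture.

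In the planar polarity arm, which orients cells without beta-catenin, 7 of 14 bright genes lay above 0 and 7 below, with a median of -0.02 that became 0.12 with the same scaling. Prickle1, a core polarity protein, gave 117.8, 128.8 and 312.2 and was 2.65-fold above regular medium in co-culture. With the median of probe sets it was not called. Celsr1, an adhesion receptor of the same core group, gave 152.8, 150.5 and 304.0, which met the 2-fold rule against conditioned medium (2.02-fold, lost after either rescaling) and just missed it against regular medium (1.99-fold, past the rule after either rescaling).

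By the rule for likeness, the 3 genes nearest to Lef1 in their differences of both MSC conditions from regular medium were Gpnmb, Btbd2 and Osmr, out of 10717 genes above the floor on all arrays. Gpnmb, a transmembrane glycoprotein, gave 212.2, 180.0 and 738.2, Btbd2 gave 76.1, 60.6 and 247.3, and Osmr, the oncostatin M receptor subunit, gave 112.1, 95.3 and 400.3. With 3 arrays this likeness describes a shape of 2 differences and no more.

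The arrays carried the epithelial markers of 4T1 cells, with Epcam, Cdh1, Krt8, Krt18 and Cldn4 bright on all 3. Of the 7 epithelial markers, Krt14, a basal keratin, was called lower in co-culture with 1218, 1263 and 439.1, 2.77-fold below regular medium, and its other bright probe set lay at -1.45 on the log2 scale. Krt5, its usual partner, was not bright on any array, with 82.7, 66.3 and 32.5. Median signals over all probe sets were 71.6 to 79.8, and 38.0% to 41.4% of signals on an array were no higher than the floor. Because Lef1 is abundant in T cells, T cell markers were read too. None of the 6 measured (Cd3e, Cd3d, Cd3g, Cd2, Cd4 and Cd8a) was bright, 5 lay under the floor on all arrays, and their summed signals were 125.1, 102.8 and 129.1 in regular medium, conditioned medium and co-culture. The 13 markers of MSCs and fibroblasts summed to 4215, 4564 and 7259, with Bgn and Postn called higher in co-culture against regular medium and 5 (Col1a1, Dcn, Thy1, Mgp and Pdgfrb) under the floor on all arrays. All 6 that were bright there lay above 0, with a median log2 difference of 0.89 beside 0.07 over all bright genes. Col1a2, Pdgfra, Eng and Nt5e were the bright ones not called. Postn, Eng and Nt5e were bright already in regular medium, at 765.6, 937.8 and 2157. Of 5 smooth muscle and pericyte markers, which summed to 278.9, 249.9 and 372.7, 3 lay under the floor on all arrays (Tagln, Myh11 and Rgs5). Acta2, the smooth muscle actin that activated fibroblasts also make, gave 42.4, 157.0 and 278.3 and was called higher than in regular medium in both co-culture (6.56-fold) and conditioned medium (3.70-fold). Cspg4, with 188.9, 27.8 and 36.0, was called lower in both, by at least 4.46-fold. Of 6 macrophage and leukocyte markers 3 were bright on any array, and of 4 endothelial markers 1 (Egfl7). None of these was called in any comparison, and the others were too dim to be called. In co-culture against regular medium 5.81% of all bright genes were called higher and 2.76% lower. The part of RNA from MSCs or other stromal cells in the Wnt9a and Lef1 signals was not tested. As these are bulk RNA samples, more cells that express a gene and more RNA per cell cannot be told apart.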

How the data were processed

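Total RNA of 4T1 cells in 3 culture conditions was measured on 1 Affymetrix Mouse Genome 430 2.0 array each, and groups were taken from the labels. The deposited table holds linear intensity values; the submitters' processing notes name MAS5, with no version or scaling target given in the sources used here. No further scaling was applied.

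Of 45037 probe sets, 34945 had 1 gene symbol, 932 had several and 9160 had none; 34741 of the first were matched by gene ID to the RefSeq gene table, whose symbol was used. Tcf4 is a synonym of Tcf7l2 but also the symbol of another gene, whose probe sets were left out by gene ID. The highest mean signal chose the probe set that stands for a gene. The floor was 42.4 and the bright level 149.3. With 1 array a group there was no test, and precision is limited by the number of arrays.

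Members and gene lists were chosen with earlier results of these data known. Beside the members, the genes named were list genes that met the 2-fold rule in any comparison, otherwise the 2 bright genes of a list with the largest differences in co-culture, and the 3 nearest to Lef1. Genes named outside this rule, chosen after their values were seen, are Wnt10a, Ctnnbip1, Ccn4, Znrf3, Tcf4, the dim targets and the markers. Named in the same way, for their other probe sets, are Tle3, Smarca4, Cdc73, Chd8, Tnks2, Dvl2, Fbxw11, Met and Cd44. Alternatives covered scaling, floor, brightness, fold and probe set choice. Computation used Python 3.11.15, NumPy 2.4.6 and pandas 2.3.3.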

Additional observations from a re-analysis of the deposited data

How the results depend on the processing

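The number of members called was recomputed under 10 other settings. For co-culture against regular medium it was 2 and became 1 with the floor at the 60th percentile (Wnt9a), 0 with brightness at the 80th percentile and 1 with the median of probe sets (Wnt7a, lower by a log2 difference of -1.93), where 6.83%, 7.31% and 8.87% of all bright genes were called. For co-culture against conditioned medium it was 2 and became 1, 0 and 0 under the same settings, and 4 at 1.5-fold (Wnt7b and Tcf7l2 added), where 26.8% of all bright genes were called beside 8.43% at 2-fold. For conditioned medium against regular medium it was 0 and became 1 (Wnt9a) with no brightness needed, where 1.42% of all genes were called. Scaling each array to the same median moved the median log2 difference of all bright genes in co-culture against regular medium from 0.07 to 0.21 and the share of calls that were higher from 67.8% to 82.7%, and in conditioned medium from 26.3% of calls to 58.1%; quantile normalization gave 37.5% there. A change of the fold or of the brightness level alters calls only, so differences recomputed under those settings could not move. Of 267 recomputed member differences, with these counted in, 27 moved by more than the median gap between probe sets of a gene. The differences of Wnt9a and Lef1 in co-culture, the members called at the settings reported, kept their sign. Wnt7a, not called there, turned from 0.12 to the called -1.93 given above. Ctnnb1 has no value once probe sets with _x_at, _s_at or _a_at names are dropped. No paired analysis was possible because each group has 1 array. Signals near the floor limit what can be said of Wnt4, Axin2 and the second probe sets of Wnt9a and Lef1.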

Other observations

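Tcf4, the E-protein gene whose name is also an older name of the Tcf7l2 product, had 6 probe sets, of which 5 were bright, and all 5 had their highest signal in co-culture. Probe set 1416723_at of Tcf4 gave 1284 in regular medium, 1465 with conditioned medium and 2459 in co-culture, 1.92-fold above regular medium, and none of the 5 met the 2-fold rule. A list that matched genes by this shared name would count these probe sets for Tcf7l2.

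Probe sets of the same member often gave opposite directions in co-culture, and this was looked at over all genes after the member values were seen. In 4477 genes with at least 2 bright probe sets, ordered by their signal on the conditioned medium array, the brightest probe set had a higher log2 difference of co-culture against regular medium than the dimmest in 59.0% of genes, with medians of 0.06 and -0.07. The same order held for 4 of 5 members, Wnt7a, Wnt7b, Ctnnb1 and Lrp6, and not for Tcf7l2. In conditioned medium against regular medium, ordered on the co-culture array, the share was 52.3% of 4396 genes and the medians were 0.02 and 0.00.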
